A study of Mus musculus with 4 samples.

Results

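The comparison described here sets MC/9 mast cells given berberine together with an anti-DNP IgE antibody against untreated MC/9 cells, gene by gene, on 2 of the 4 arrays of the series. MC/9 is an established mast cell line whose labels give liver as its origin, an age of 13 days and the background (B6 X A/J)F1. All 4 cultures grew in a medium with the supplement Rat T-STIM. The combined cells, labelled BER+DNP, received both agents for 24 h and were then cultured for 6 h. The doses given for the treatments are 10 microM for berberine (BER) and 500 microg/ml for the antibody (DNP). The control cells are labelled as untreated, and no treatment or culture time is given for them, so a difference in time in culture cannot be told apart from the agents. BER cells and DNP cells, given 1 agent each for the same times, supplied the single-agent differences against which the combined difference was set. The labels name no step in which the antigen dinitrophenyl was added. Each group is 1 array of total RNA on the Affymetrix Mouse Genome 430 2.0 design, so no value below has a replicate error, no test can be made and no p-value is given.

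Values are log2 signals as the authors deposited them. A gene was read by its brightest probe set, the set of short oligonucleotides with the highest mean log2 signal over the 4 arrays. Of 18193 named genes, 12585 had a mean at or above 3.138, the median of the 45037 probe sets that are not array controls, and only these entered counts. The combined difference is the log2 signal of BER+DNP minus that of control, and the sum is the BER difference from control plus the DNP difference from control. The departure is the combined difference minus the sum. A departure of 0 is what independent multiplicative effects of the 2 agents on the signal would give. Where 4 values follow a gene without labels, their order is control, BER, DNP and BER+DNP. Genes were counted when at least 2-fold or at least 1.5-fold apart, thresholds of size and not of significance.

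Mast cells hold IgE on the high-affinity receptor FceRI, and crosslinking of that IgE starts the release of histamine and proteases and the synthesis of eicosanoids and cytokines. Some monomeric IgE antibodies act on mast cells without added antigen. Berberine is a plant alkaloid that collects in mitochondria, inhibits complex I of the respiratory chain and activates the AMP-activated kinase. When 2 agents act on 1 cell, their effects on a transcript can add on the log scale, can fall short of the sum where both reach the same end point, or can appear only together.

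Pearson correlations between pairs of arrays ran from 0.988 to 0.991 over the non-control probe sets. Probe sets differ in how well they bind, so marker levels are not compared between cell types. Of 17 mast cell markers on the array, 7 reached the filter and 2 were bright, a word used here for tested genes with a mean log2 signal of at least 5.41, their 75th percentile. Fcer1a, Ms4a2, Kit and Cpa3 were all under the filter, and the summed mast cell marker level, as log2, was 7.71 in control and 7.90 in BER+DNP. Of 18 epithelial markers, Krt17 among them, 15 reached the filter and 8 were bright, while 12585 of all 18193 named genes reached it. The summed epithelial marker level was 10.83 in control and 10.92 in BER+DNP. Markers of other cell types also reached the filter, 9 of 12 for blood cells and 8 of 10 for T and B cells. The counts were 7 of 12 for macrophages, 2 of 7 for basophils and eosinophils, 10 of 14 for fibroblasts and 7 of 10 for neural cells. No cell type is read from these counts. In bulk RNA, fewer cells of a type and less RNA per cell cannot be told apart, and the part of the cells' identity in any result was not tested. Of the control probe sets, 21 of 24 poly-A spike-in sets read lower in BER+DNP than in control, with a median of -0.26, while the 18 hybridisation sets had a median of 0.00. The median poly-A value was -0.48 in BER and -0.13 in DNP. The part of labelling in the gene differences was not tested.

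The combined difference was small for nearly all genes. Its median over 12585 genes was -0.00 and its SD across genes 0.23, with 48.4% of genes above 0 and 50.0% below. At least 2-fold higher in BER+DNP were 4 genes (0.0318%), and at least 2-fold lower were 5 (0.0397%), together 0.0715%. At least 1.5-fold, 114 genes were higher (0.906%) and 110 lower (0.874%), together 1.78%. For comparison, at the 1.5-fold threshold 127 genes (1.01%) were higher and 124 (0.985%) lower in BER against the same control array, and 101 (0.803%) and 79 (0.628%) in DNP. Of the 3147 bright genes, 21 were at least 1.5-fold higher (0.667%) and 35 lower (1.11%), together 1.78%. At 2-fold these counts were 1 (0.0318%) and 3 (0.0953%), together 0.127%.

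The 14 genes farthest above control are described first, except Cyp4f13, which follows with the genes that fell short of the sum. Cdkl4, a kinase related to the cyclin-dependent kinases, read 3.01 (control), 4.19 (BER), 3.12 (DNP) and 4.59 (BER+DNP). Its combined difference of 1.58, a factor of 2.99, was the highest of the tested named genes, and it stood with the BER array rather than the DNP array. Its control and DNP values lay under the filter of 3.138, so it was tested only through the berberine arrays, and the difference was 0.70 by the median over its probe sets and 0.20 once 100 was added to each signal. Wnt8b, a secreted Wnt ligand, read 3.37, 4.07, 4.17 and 4.48 in the same order (combined difference 1.10). All 3 treated arrays lay above control for Wnt8b, but a dimmer probe set of it read 4.03, 3.66, 3.68 and 4.22 and had both single agents below control.

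Btg1, which restrains proliferation and binds the CCR4-NOT deadenylase, was the brightest gene at this size. Its log2 signals were 8.97 (control), 10.00 (BER), 9.24 (DNP) and 10.07 (BER+DNP), a combined difference of 1.10 or 2.15-fold. The 2 arrays with berberine stood together and above the 2 without. A further Btg1 probe set repeated that order with 8.03, 9.07, 8.09 and 8.87, a combined difference of 0.84. Of its relatives, Tob1 had a combined difference of 0.15, Btg2 of -0.11 and Tob2 of -0.08, so of the 4 tested BTG and TOB genes only Btg1 was past 1.5-fold.

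Transcription regulators among the 14 highest genes included Pgr, the progesterone receptor (2.90, 3.32, 3.28 and 3.95 for control, BER, DNP and BER+DNP), and Tsc22d1, a leucine zipper protein induced by TGF-beta (3.09, 3.28, 3.58 and 4.09). Sp1, the factor that binds GC boxes, read 3.21, 3.30, 3.80 and 4.12. In these 3 genes BER+DNP was the highest array and each single agent lay between it and control. Their combined differences were 1.06, 1.00 and 0.90, but a further Tsc22d1 probe set gave 0.24. The control values of Pgr and Tsc22d1 lay under the filter, so both passed it through the treated arrays, where they were high. Their lowest combined differences over the processing alternatives were 0.10 and 0.11. Nrl, a photoreceptor transcription factor, had a combined difference of 0.88, and Btla, an inhibitory receptor of lymphocytes, of 0.86. The control value of Btla, 2.79, lay under the filter as well.

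Several other higher genes encode mitochondrial enzymes, although the mitochondrial lists as wholes had medians at or below 0. Idh3a, the catalytic subunit of the isocitrate dehydrogenase of the citric acid cycle, read 5.19 (control), 6.05 (BER), 5.79 (DNP) and 6.08 (BER+DNP), a difference of 0.89 beside 0.26 in a further probe set. Acadsb, which oxidises short branched-chain acyl-CoA, read 3.70, 4.14, 4.26 and 4.60. Acsf3, the mitochondrial malonyl-CoA synthetase, read 5.63, 5.99, 6.08 and 6.37, a bright gene in which the BER and DNP differences were 0.36 and 0.45 and the combined difference 0.74. Uqcr10, a small subunit of complex III, read 7.20 (control), 7.76 (BER) and 8.06 (BER+DNP), with a DNP difference of 0.79, but its further probe set read 4.72, 4.49, 4.55 and 4.56, below control in all treated arrays.

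Among bright genes the leading higher ones after Btg1 and Idh3a were Uqcr10, Abhd4 (0.83), Cebpb (0.77), Acsf3, Shld1 (0.72) and Polr2a (0.70). Abhd4, a lipase acting on N-acyl phospholipids, read 9.04, 10.11, 9.18 and 9.87, and Cebpb, a bZIP transcription factor of the stress and acute phase responses, read 7.03, 7.90, 7.22 and 7.81. Both were high on the 2 berberine arrays, and a further Abhd4 probe set had a smaller difference of 0.24. Polr2a, the largest subunit of RNA polymerase II, read 6.43, 7.10, 6.71 and 7.13, though a dimmer probe set had a combined difference of 0.07. Shld1, a subunit of the shieldin complex of DNA repair, read 5.23, 5.73, 5.64 and 5.95, with all treated arrays above control. Among dimmer genes, Ufsp1, a protease of the ubiquitin-like modifier UFM1, read 3.50, 4.71, 3.64 and 4.50, and N6amt1, a methyltransferase of the translation release factor, read 3.02, 4.06, 3.30 and 3.95. In these 2 genes as well, DNP lay close to control. The N6amt1 control value lay under the filter, so that gene passed it through the treated arrays. Gprc5c read 3.69, 4.43, 4.06 and 4.58, a combined difference of 0.89, but of -0.06 by a further probe set.

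**Figure D1:**
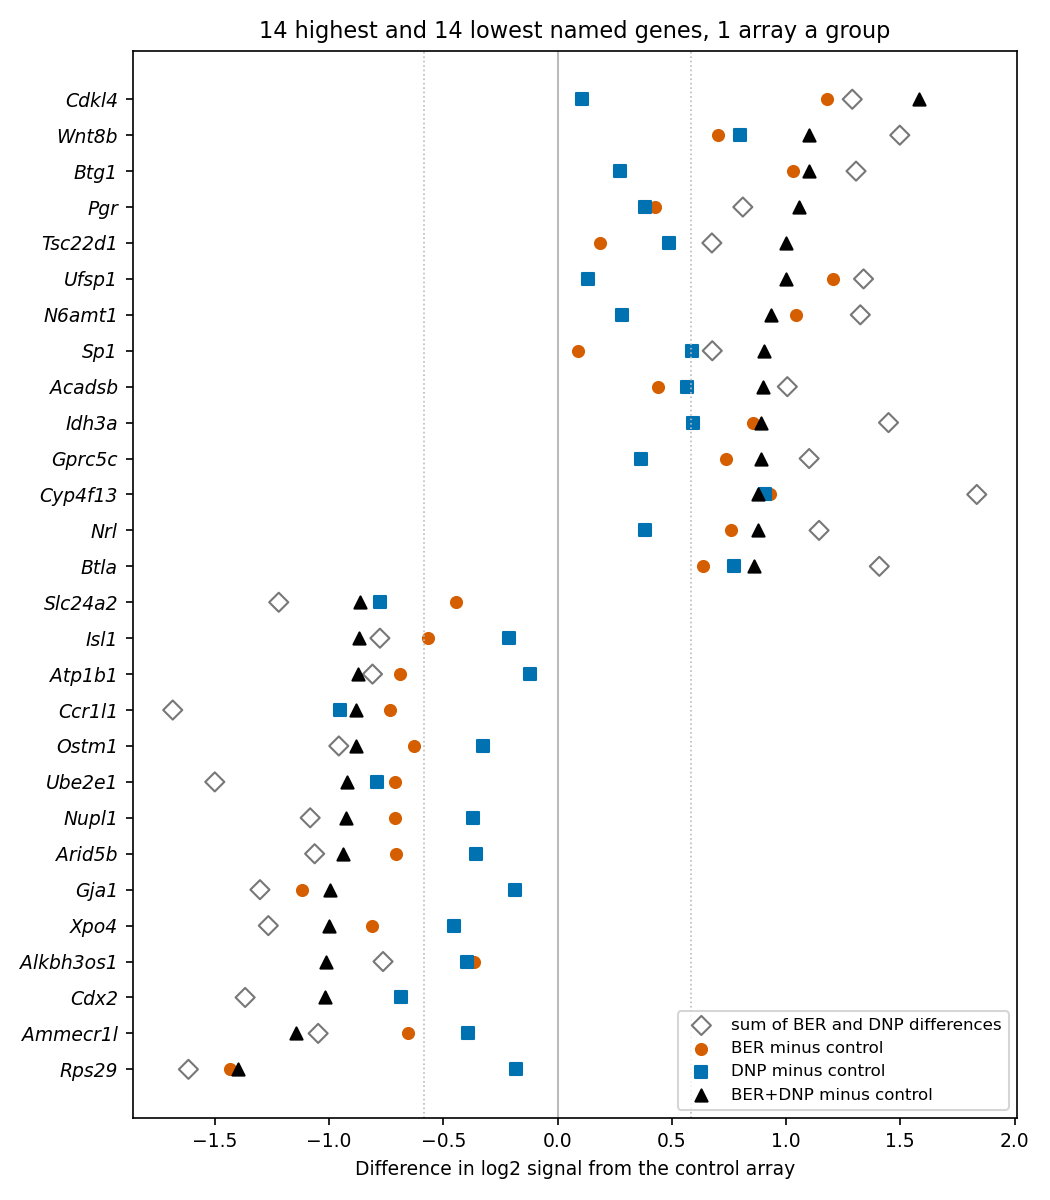
Combined difference (black triangles), BER difference (orange circles), DNP difference (blue squares) and their sum (open diamonds) for the 14 highest and 14 lowest named genes, in log2 signal relative to the control array, 1 array a group; dotted lines mark 1.5-fold. The combined difference runs from 1.58 for Cdkl4 to -1.40 for Rps29, and in genes such as Btg1, Ufsp1 and Rps29 the circle lies near the triangle while the square lies near 0.

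The genes farthest below control are described next. Gja1, which encodes the gap junction protein connexin 43, read 10.47 (control), 9.36 (BER), 10.29 (DNP) and 9.48 (BER+DNP), a combined difference of -0.99. All 4 further Gja1 probe sets were also lower in BER+DNP, with differences of -0.73, -0.73, -0.54 and -0.41. Among the other connexins, Gjc1 (connexin 45) had a combined difference of -0.83, Gjb2 of -0.16 and Gjd2 of -0.15, and 7 of 11 tested connexins were below 0.

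Atp1b1, the beta subunit of the sodium pump, read 10.20, 9.51, 10.09 and 9.33, with the 2 berberine arrays low. Its further probe sets gave combined differences of -0.55, -0.13, -0.05 and 0.18, so only the brighter ones carried the difference. Slc24a2, a potassium-dependent sodium-calcium exchanger, read 5.36, 4.92, 4.59 and 4.50, lower on all treated arrays. Vcl, the adhesion protein vinculin, read 5.82, 5.29, 5.78 and 4.99, and Tagln, an actin-binding protein of smooth muscle, read 5.54, 5.63, 5.22 and 4.93. These 2 were the largest differences in the list of actin and SRF target genes, of which 7 of 19 were above 0 and 11 below.

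The next 4 lower genes act in nuclear transport or splicing. Xpo4, a nuclear export receptor, read 7.24, 6.43, 6.79 and 6.24, and its further probe set had a difference of only -0.15. Nupl1, a nucleoporin, read 6.24, 5.53, 5.87 and 5.32 (-0.93). Sf3b5, a subunit of the SF3b splicing complex, read 8.80, 8.15, 8.69 and 7.95, and its second probe set was also lower, by a difference of -0.60. Sf3b1, the largest SF3b subunit, had a difference of -0.71, but its further probe sets gave -0.00 and 0.16. Over 48 tested splicing factors, 24 were above 0 and 24 below, with a median of -0.01 (over all tested genes, -0.00).

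Rps29, a protein of the small ribosomal subunit, had the lowest combined difference of the tested genes. It read 7.61 (control), 6.18 (BER), 7.43 (DNP) and 6.21 (BER+DNP), a difference of -1.40 or 2.64-fold. The berberine arrays stood apart from the other pair by more than 1 log2 unit. A second Rps29 probe set, with signals of 6.81, 6.72, 6.91 and 6.71, had a combined difference of only -0.10, so the 2 readings of this gene disagree.

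Other lower genes were of mixed function, transcription regulators among them. Ammecr1l read 6.63, 5.97, 6.24 and 5.48, the lowest value on BER+DNP, for a combined difference of -1.15, though its further probe sets gave -0.30 and 0.25. Cdx2, a homeobox factor of intestine and trophectoderm, read 5.09, 4.40, 4.40 and 4.07 but had a difference of 0.15 by a dimmer probe set, and Isl1, a LIM homeobox factor, read 5.00, 4.43, 4.79 and 4.13 (-0.87, or -0.23 by a dimmer probe set). Arid5b, an AT-rich DNA-binding protein, read 6.17, 5.46, 5.81 and 5.23 by its brightest probe set, a difference of -0.94, while 3 dimmer sets gave 0.21, 0.25 and -0.16. Ube2e1, a ubiquitin-conjugating enzyme, read 3.98, 3.27, 3.20 and 3.06, low on all treated arrays. Ostm1, a partner of the lysosomal chloride transporter ClC-7, had a difference of -0.88, and Alkbh3os1, a transcript antisense to Alkbh3, of -1.02. The BER+DNP values of Ube2e1 and Alkbh3os1 lay under the filter, so both passed it through the other arrays. Id1, an inhibitor of basic helix-loop-helix factors, read 7.93, 7.20, 7.74 and 7.38, again with the berberine arrays low.

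Of the genes past 1.5-fold, 18 higher and 17 lower ones had an array under the filter, so they passed it through the arrays where they were high. Further probe sets gave a weak second reading of these genes. Of the 114 higher genes, 39 had 48 further probe sets past the filter, of which 29 were above 0 and 5 at least 1.5-fold higher. Of the 110 lower genes, 43 had 70, of which 45 were below 0 and 3 at least 1.5-fold lower. Over 4089 genes with such a pair, the brightest and second probe sets were compared. Their Pearson correlation was 0.067 for the combined difference and 0.003 for the departure. The departures described below thus had almost no agreement between probe sets. A further probe set reads the same RNA at another place and is not a replicate of the condition.

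The combined difference was then compared with the sum of the single-agent differences. At least 1.5-fold from the sum were 248 genes above it (1.97%) and 289 below it (2.3%), together 4.27% of tested genes. At least 2-fold from it were 12 above (0.0954%) and 12 below (0.0954%), together 0.191%. Among bright genes 16 (0.508%) were at least 1.5-fold above and 25 (0.794%) below, together 1.3%, and 0 reached 2-fold. The SD of the departure across tested genes was 0.27, beside 0.23 for the combined difference and 0.38 for the sum.

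Most genes past 1.5-fold in the combined cells lay within 1.5-fold of the sum. That held for 96 of the 114 higher genes and 98 of the 110 lower ones, while 5 and 3 exceeded the sum by more, and 13 and 9 fell short of it by more. Together 30 of the 224, or 13.4%, departed by 1.5-fold, against 4.27% of all tested genes, and among bright genes 2 of 56, or 3.57%, against 1.3%. The BER+DNP array enters both the combined difference and the departure. A higher share among genes picked by the combined difference is therefore partly built in. For the higher genes the medians were 0.66 for the combined difference, 0.44 for BER, 0.40 for DNP and 0.85 for the sum. For the lower genes they were -0.68, -0.49, -0.38 and -0.84.

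These counts describe the arrays and do not show additive action. The control array enters both single-agent differences and the combined one, so a low or high control reading moves all of them together, and moves the sum more than the combined difference. Genes picked by the sum instead gave another picture, again partly built in by the choice. Of 766 genes whose sum was at least 1.5-fold higher, 555 lay within 1.5-fold of it, 211 fell short and 0 exceeded it. Of 703 with a lower sum the counts were 520, 183 and 0.

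**Figure D2:**
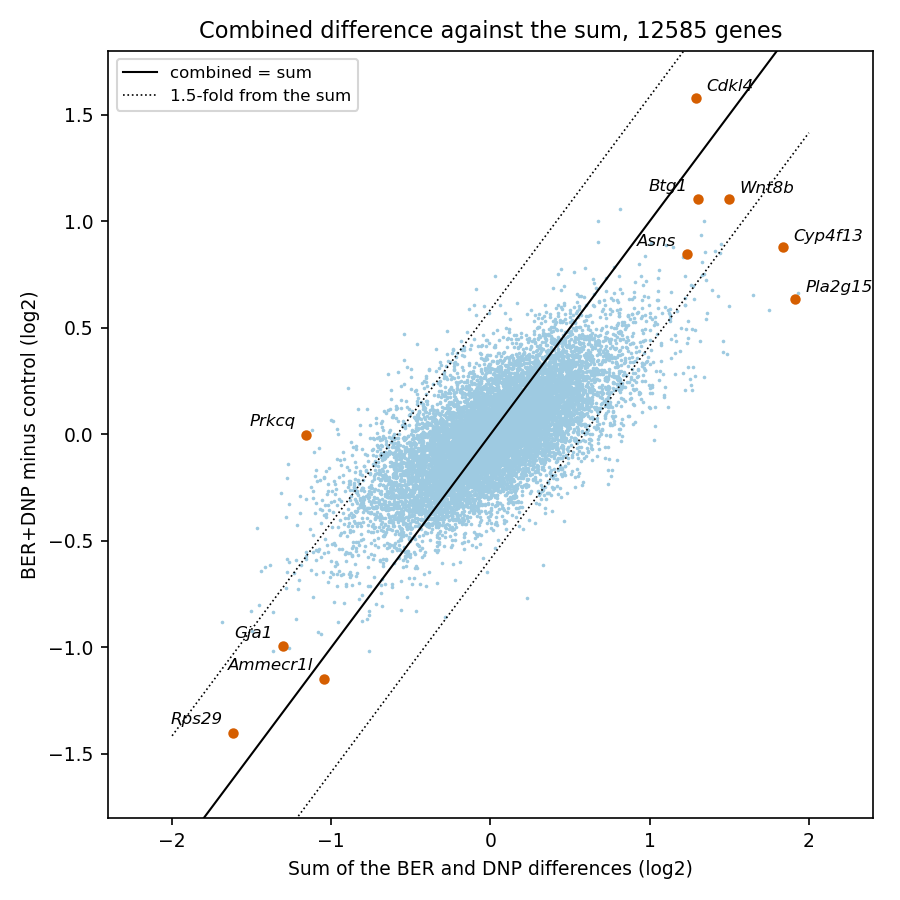
Combined difference (vertical axis) against the sum of the BER and DNP differences (horizontal axis), both in log2, for 12585 tested genes, with 10 named genes in orange; the solid line marks equality and the dotted lines 1.5-fold from it. Cdkl4 (1.58), Btg1 (1.10) and Rps29 (-1.40) lie between the dotted lines, while Cyp4f13 and Pla2g15 lie below them and Prkcq above. The control array is shared by both axes.

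Because BER+DNP minus control equals the mean of the 2 berberine differences (without and with the antibody) plus the mean of the 2 antibody differences (without and with berberine), each gene could be split by agent. The berberine part was the larger in 61 of the 114 higher genes and the antibody part in 53, with medians of 0.36 and 0.32. For the 110 lower genes the counts were 66 and 44 and the medians -0.39 and -0.30. Of the higher genes 39 were at least 1.5-fold higher with berberine alone, 23 with the antibody alone and 65 with neither alone. Of the lower genes the counts were 37, 19 and 63. Over all tested genes, 1.01% were at least 1.5-fold higher in BER and 0.803% in DNP, and 0.985% and 0.628% were lower. The control array enters the combined and both single-agent differences, so part of this overlap is built in. Btg1 had a berberine part of 0.93 and an antibody part of 0.17, and Rps29 had a berberine difference of -1.43 alone beside -0.18 for the antibody. Sp1 leaned the other way, with a berberine part of 0.20 and an antibody part of 0.70. Wnt8b, at 0.50 and 0.60, and Pgr, at 0.55 and 0.50, were split near evenly.

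Genes that fell short of the sum mostly had 1 shape, with the 3 treated arrays near each other and control apart. Picking genes by the combined difference and the departure together favours this shape. Cyp4f13, a cytochrome P450 enzyme, read 2.86 (control), 3.78 (BER), 3.76 (DNP) and 3.73 (BER+DNP), but its control value lay under the filter and the combined difference was 0.08 once 100 was added to each signal. Gpr183, the oxysterol receptor that guides immune cell migration, read 3.73, 4.32, 4.36 and 4.33. Vldlr, a lipoprotein receptor, read 4.56, 5.46, 5.00 and 5.31, and Rpl41, a protein of the large ribosomal subunit, read 4.97, 5.49, 5.68 and 5.58, with a combined difference of 0.07 in a dimmer probe set. Among lower genes, Ahnak, a very large scaffold protein, read 4.65, 3.90, 3.99 and 4.03, and Satb1, a chromatin organiser of T cells, read 4.50, 4.03, 3.59 and 3.88. In Gjc1, at 4.17, 3.07, 3.76 and 3.34, the treated arrays were more spread. With 1 array a group, a deviating control array and an effect shared by both agents cannot be told apart.

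Genes that exceeded the sum had the opposite shape, with BER+DNP apart and the other 3 arrays alike. This shape, too, is favoured by how the genes were picked. Irs2, an adaptor of insulin and cytokine receptors, read 4.76 (control), 4.68 (BER), 4.79 (DNP) and 5.36 (BER+DNP). Cd276, the immune checkpoint protein B7-H3, read 3.63, 3.59, 3.54 and 4.22, and Pom121l12 read 3.82, 3.80, 3.75 and 4.50. On the lower side, Gsg1l, an auxiliary subunit of AMPA receptors, read 3.70, 3.80, 3.84 and 2.94, and Rrp36, a ribosome biogenesis factor, read 3.65, 3.65, 3.98 and 3.04. Nipal2 read 3.36, 3.23, 3.48 and 2.72, and the other members were 1700029P11Rik and 2310001H17Rik. The BER+DNP values of Gsg1l, Rrp36 and Nipal2 lay under the filter, so these genes passed it through the other arrays, where they were higher. None of the 8 is bright, and a deviating BER+DNP array cannot be told apart from an effect of the combination. Gpr183, Ahnak, Satb1 and the genes exceeding the sum, other than Rrp36, were picked for description after their values were seen.

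The largest departures of all mostly came from genes in which both single-agent arrays lay on the same side of control and the combination within 1.5-fold of control. Of the 248 genes above the sum, 236 had both single-agent differences below 0 and 234 a combined difference under 1.5-fold. Of the 289 below it, 275 had both above 0 and 273 a combined difference under 1.5-fold. The departure subtracts both single-agent differences, so picking genes by it favours this shape. Over all tested genes, only 1.78% were at least 1.5-fold apart in the combined difference, so a value under 1.5-fold is no trait of these genes. Prkcq, protein kinase C theta, read 4.66 (control), 4.05 (BER), 4.11 (DNP) and 4.66 (BER+DNP), a departure of 1.15. The combination and the control matched, and both single agents lay lower. Zfas1, a long non-coding RNA that hosts small nucleolar RNAs, read 3.70, 3.24, 3.04 and 3.72, and Rfc1, the large subunit of the clamp loader, read 4.11, 3.49, 3.42 and 3.83. Mmp23, a membrane-bound metalloproteinase, read 5.68, 5.08, 5.00 and 5.48, the brightest of the 8 genes farthest above the sum, though a further probe set had a departure of -0.17.

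Below the sum, Pla2g15, a lysosomal phospholipase, read 2.52, 3.46, 3.48 and 3.15 (departure -1.28), and Cntd1, a factor of meiotic crossing over, read 2.54, 3.57, 3.44 and 3.20 (-1.27). Their control values lay under the filter. Wars2, the mitochondrial tryptophanyl-tRNA synthetase, read 3.49, 4.33, 4.13 and 3.87, and Il17rd, an antagonist of FGF signalling, read 3.87, 4.53, 4.25 and 3.85. A further Wars2 probe set had a departure of -0.26. In these genes the combined cells lay nearer to control than either single agent.

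**Figure D3:**
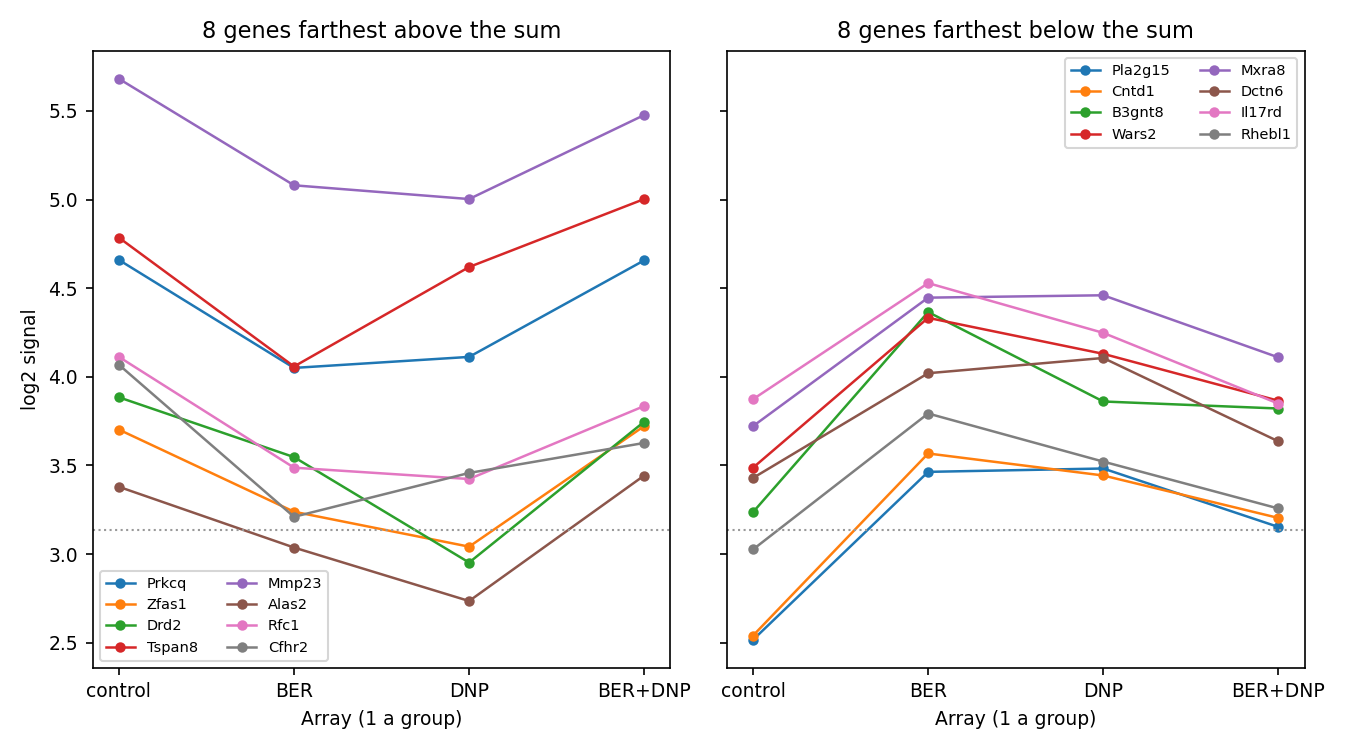
Log2 signal on each of the 4 arrays (horizontal axis, 1 array a group) for the 8 genes farthest above the sum (left) and the 8 farthest below it (right); the dotted line is the filter of 3.138. On the left the single-agent arrays dip, as for Prkcq from 4.66 to 4.05 and 4.11, and on the right they peak, as for Pla2g15 from 2.52 to 3.46 and 3.48.

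Among bright genes the departures were smaller. Manf, a secreted factor of the endoplasmic reticulum stress response, read 6.25, 5.45, 5.86 and 5.88 (departure 0.83), and Krt15, a basal keratin, read 7.55, 6.75, 7.25 and 7.19 (0.73). In both, BER was the lowest array and adding the antibody left a smaller difference. Trex2, a DNA exonuclease, had a departure of 0.79, Plekhm3 of 0.71 (-0.67 by a further probe set) and Ppp3r1, the regulatory subunit of calcineurin, of 0.70. Cog8, a subunit of the Golgi tethering complex, read 6.87, 7.46, 7.53 and 7.33 (-0.79), with all treated arrays above control. A further Cog8 probe set, at 4.79, 4.87, 4.73 and 4.81, showed no such order. Wdr55 (-0.79), Cln8, a cargo receptor of the endoplasmic reticulum (-0.77), Osbp, an oxysterol-binding protein (-0.75), and Clns1a, a factor of snRNP assembly (-0.73), followed, though further probe sets gave departures of 0.03 for Cln8 and -0.01 for Clns1a.

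Gene lists written for pathways of the mast cell, of berberine and of general cell physiology showed shifts well under 1.5-fold. The lists were chosen with earlier results of these data known, so their counts beside all tested genes are descriptions only. The widest median shift among lists with at least 8 tested members was in the proteasome, the protease complex that degrades ubiquitinated proteins. Of 38 tested subunits 31 were below 0 and 7 above, none at least 1.5-fold apart, against 50.0% of all tested genes below 0. The median was -0.16, beside -0.25 in BER and 0.04 in DNP, and 33 subunits were below 0 in BER but 13 in DNP. Psmb5, the chymotrypsin-like catalytic subunit, read 6.84 (control), 6.21 (BER), 6.91 (DNP) and 6.43 (BER+DNP). Psmb3, a structural subunit of the catalytic core, read 9.12, 8.57, 9.14 and 8.73, and Psma5, of the alpha ring, read 10.47, 10.11, 10.36 and 10.10. Psmd11, of the regulatory lid, read 10.29, 9.95, 10.19 and 9.89. In all 4 the berberine arrays were low and DNP stayed near control, while 6 further Psmd11 probe sets ran from -0.49 to 0.25. The poly-A spike-in sets were also lowest in BER (median -0.48, beside -0.26 in BER+DNP and -0.13 in DNP), and their part in the proteasome shift was not tested. Psmd14, the lid's deubiquitinase, had the highest difference, 0.20, and was picked here as the extreme of its list.

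Lists of growth and division leaned the same way. Ribosome biogenesis had 28 of 38 members below 0 and a median of -0.12, DNA replication 20 of 29 and -0.12, and cytosolic chaperones 17 of 24 and -0.12. Nop56, a core protein of box C/D small nucleolar particles, read 7.82, 7.07, 7.68 and 7.36. Rrm2, a subunit of ribonucleotide reductase, read 7.26, 6.39, 7.11 and 6.71, and Pcna, the sliding clamp, read 6.62, 6.00, 6.83 and 6.24. Hspa8, the constitutive HSP70, read 8.20, 7.70, 8.32 and 7.86. In each of these genes the BER array was lowest and BER+DNP lay between BER and the 2 arrays without berberine. Further probe sets of Nop56 (0.05) and Hspa8 (0.15) did not repeat the difference. Mcm2, a helicase subunit, ran against its list at 0.39, but its control and DNP values lay under the filter. It was therefore tested only through the berberine arrays, where it was high. Mitosis genes had a median of -0.08 with 19 of 30 below 0, a sign kept in 7 of 8 processing alternatives.

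Cytosolic ribosomal proteins went the other way, with 31 of 44 above 0 and 12 below and a median of 0.07, beside -0.02 in BER and 0.06 in DNP. Rpl37 read 9.11, 9.32, 9.41 and 9.64, and Rpl4 read 4.42, 4.97, 4.78 and 4.97, whereas Rps29 was the lowest gene of the comparison. Many ribosomal protein genes have near-identical processed copies, so a probe set can read several loci.

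Mitochondrial lists were close to 0. Complex I, the target named above for berberine, had 16 of 25 subunits below 0 and a median of -0.06 (BER -0.07, DNP 0.07), a sign kept in 7 of 8 alternatives. Ndufv1, which carries the flavin site, read 7.14, 6.68, 7.01 and 6.80 (a further probe set had a difference of 0.34), and Ndufc1 read 4.45, 4.49, 4.86 and 4.98. The other respiratory complexes had a median of -0.00, mitochondrial ribosomal proteins of -0.08 with 42 of 67 below 0, and import proteins of -0.08 with 14 of 26 below 0. Timm8a1, a small chaperone of the intermembrane space, read 6.94, 6.30, 7.07 and 6.40.

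**Figure D4:**
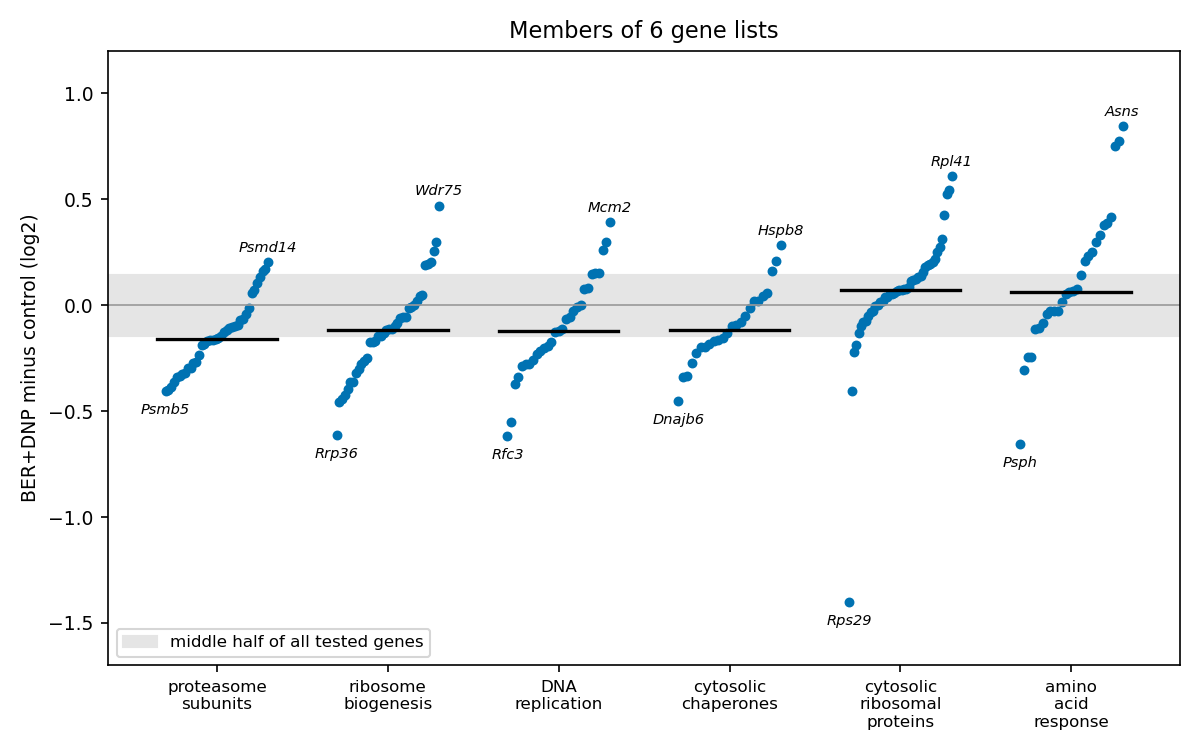
Combined difference (log2) of every tested member of 6 gene lists, sorted within each list, with the list median as a black bar and the interquartile range of all tested genes in grey. Proteasome subunits lie mostly below 0 with a median of -0.16, and ribosomal proteins mostly above with a median of 0.07 and Rps29 at -1.40.

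The amino acid response, in which the kinase GCN2 and the factor ATF4 raise genes of amino acid supply, had 17 of 28 members above 0 and a median of 0.06. At least 1.5-fold higher were 3 of the 28 (Asns, Cebpb and Vldlr), beside 0.906% of all tested genes, and lower was 1 (Psph), beside 0.874%. Further Vldlr probe sets gave -0.03 and 0.03. Asns, asparagine synthetase, read 4.20 (control), 5.32 (BER), 4.32 (DNP) and 5.05 (BER+DNP), and a dimmer Asns probe set read 3.52, 3.88, 3.01 and 4.20. In both readings the berberine arrays were above the others. Psph, the last enzyme of serine synthesis, read 4.35, 4.01, 3.70 and 3.69. The cytosolic tRNA synthetases, many of which are ATF4 targets, had 12 of 18 above 0 and a median of 0.12, led by Sars (7.60, 8.01, 7.64 and 8.03, and a difference of 0.08 by a further probe set).

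ATF4 and C/EBP proteins bind together at the C/EBP-ATF response element, searched here as TGATGNAA on both strands in RefSeq promoters of mouse build GRCm38.p6, which run from 250 bases before to 50 after the first listed start. Of 10057 tested genes with a promoter, 2.35% held it, beside 5 of 26 genes of the amino acid list (19.2%), 5 of 101 higher genes (4.95%) and 4 of 89 lower genes (4.49%). The 5 on the amino acid list were Asns, Trib3, Chac1, Nupr1 and Fgf21, whose combined differences were 0.84, 0.21, -0.11, -0.25 and -0.03. The element was thus found in promoters of genes on either side of 0, and 3 are shown, 1 from that list, 1 other higher gene and 1 lower gene. Capitals mark the element and, in Acsf3, a CCAAT box, a common promoter element; Acsf3 carries the response element on the other strand. A match is a description of letters and not a binding site.
Asns, chr6:7693160-7693459, minus strand: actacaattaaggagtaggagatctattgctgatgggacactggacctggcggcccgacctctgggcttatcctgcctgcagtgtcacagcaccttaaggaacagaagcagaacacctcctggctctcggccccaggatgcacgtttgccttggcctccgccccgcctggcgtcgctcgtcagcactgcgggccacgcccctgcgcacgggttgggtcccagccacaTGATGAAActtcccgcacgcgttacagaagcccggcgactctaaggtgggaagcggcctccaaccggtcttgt
Acsf3, chr8:122775236-122775535, plus strand: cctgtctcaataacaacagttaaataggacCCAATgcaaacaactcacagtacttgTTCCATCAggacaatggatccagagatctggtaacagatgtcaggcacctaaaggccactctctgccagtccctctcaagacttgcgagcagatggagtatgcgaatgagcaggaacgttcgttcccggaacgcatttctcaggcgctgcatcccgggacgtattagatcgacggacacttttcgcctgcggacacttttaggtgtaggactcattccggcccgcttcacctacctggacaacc
Arid5b, chr10:68278677-68278976, minus strand: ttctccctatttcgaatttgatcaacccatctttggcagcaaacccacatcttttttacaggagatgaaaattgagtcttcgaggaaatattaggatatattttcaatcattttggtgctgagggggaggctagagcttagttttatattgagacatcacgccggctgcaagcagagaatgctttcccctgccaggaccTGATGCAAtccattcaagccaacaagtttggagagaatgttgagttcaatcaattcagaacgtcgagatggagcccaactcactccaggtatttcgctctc

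The CCAAT box, searched on both strands, stood in 37.4% of all promoters, in 48 of 101 higher genes (47.5%) and in 43 of 89 lower genes (48.3%). The brightest gene past 2-fold carries it on the reverse strand, in capitals here.
Btg1, chr10:96616751-96617050, plus strand: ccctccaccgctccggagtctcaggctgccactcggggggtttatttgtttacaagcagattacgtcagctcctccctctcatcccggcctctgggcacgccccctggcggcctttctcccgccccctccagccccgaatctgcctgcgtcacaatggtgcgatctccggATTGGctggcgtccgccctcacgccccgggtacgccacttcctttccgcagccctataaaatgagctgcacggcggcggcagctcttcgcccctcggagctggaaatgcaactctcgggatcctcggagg

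Genes of mast cell activation were read from a panel, in which 0 tested genes differed by 1.5-fold, beside 1.78% of all tested genes; from so few genes nothing is read about the panel. Hdc, the enzyme that makes histamine, read 5.46 (control), 5.32 (BER), 5.36 (DNP) and 5.86 (BER+DNP), a combined difference of 0.40 and a departure of 0.64. BER+DNP was the high array and the other 3 lay close together. Tnf read 5.01, 5.05, 4.95 and 4.99. Tgfb1 read 5.58, 5.25, 5.80 and 5.06, and Lif, a cytokine of the IL-6 family, read 4.25, 3.74, 4.07 and 3.80, both low on the berberine arrays, but further probe sets of Tgfb1 and Lif had differences of 0.00 and 0.05. Fos, an immediate early AP-1 factor, read 5.17, 5.32, 5.88 and 5.58, highest with the antibody alone. Nfkbia, the inhibitor of NF-kB, read 10.85, 10.73, 10.86 and 10.54.

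Probe sets of Il4, Il6, Il13 and Ptgs2 were under the filter, so their differences are not read. Il5 (0.24), Csf2 (0.06), Ccl2 (0.02), Ccl3 (-0.03), Fcer1g (0.06) and Egr1 (-0.18) were past it and differed by less than 1.5-fold. The 28 tested cytokines and chemokines had a median of 0.01 with 15 above 0, and the 34 FceRI signalling genes a median of -0.00 with 16 above 0. In that list Plcg1, the phospholipase downstream of the receptor, read 6.24, 6.54, 6.68 and 6.74, while its further probe sets had differences of -0.11 and -0.32, and Vav1, a guanine nucleotide exchange factor, read 4.54, 4.39, 4.35 and 4.10. Granule genes had a median of 0.05 over 16 and NF-kB genes of -0.12 over 19.

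Smaller lists with a shift were the eicosanoid enzymes, 10 of 13 above 0 with a median of 0.15, and the BCL2 family, 11 of 14 above 0 with a median of 0.13. Lta4h, which makes leukotriene B4, read 5.26, 5.46, 5.49 and 5.63, while Ptges, a prostaglandin E synthase, read 5.54, 5.19, 5.05 and 5.04. Bbc3, the pro-apoptotic PUMA, read 4.55, 5.42, 4.82 and 5.22, and Bcl2, the anti-apoptotic founder of the family, read 4.82, 5.19, 5.34 and 5.35, so members of opposite function were higher together, with Bcl2 at 0.13 by a further probe set. Socs3, a feedback inhibitor of cytokine receptors, read 4.33, 4.72, 4.57 and 5.06, the largest difference (0.73) of the STAT5 and cytokine feedback list, whose median was -0.00. Mxi1, a MYC antagonist, read 5.26, 5.67, 5.41 and 5.86, and Mycbp, a MYC-binding protein, read 8.60, 7.72, 8.57 and 7.89. For Mycbp the berberine arrays were the low pair. Further probe sets gave -0.04 for Mxi1, -0.07 for Lta4h, -0.27 for Mycbp, and -0.07 and -0.07 for Ptges. Hif1a, the oxygen-regulated factor, read 3.94, 3.40, 3.80 and 3.35, and Pdk3, an inhibitory kinase of pyruvate dehydrogenase, read 3.61, 3.34, 3.35 and 2.84.

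**Figure D5:**
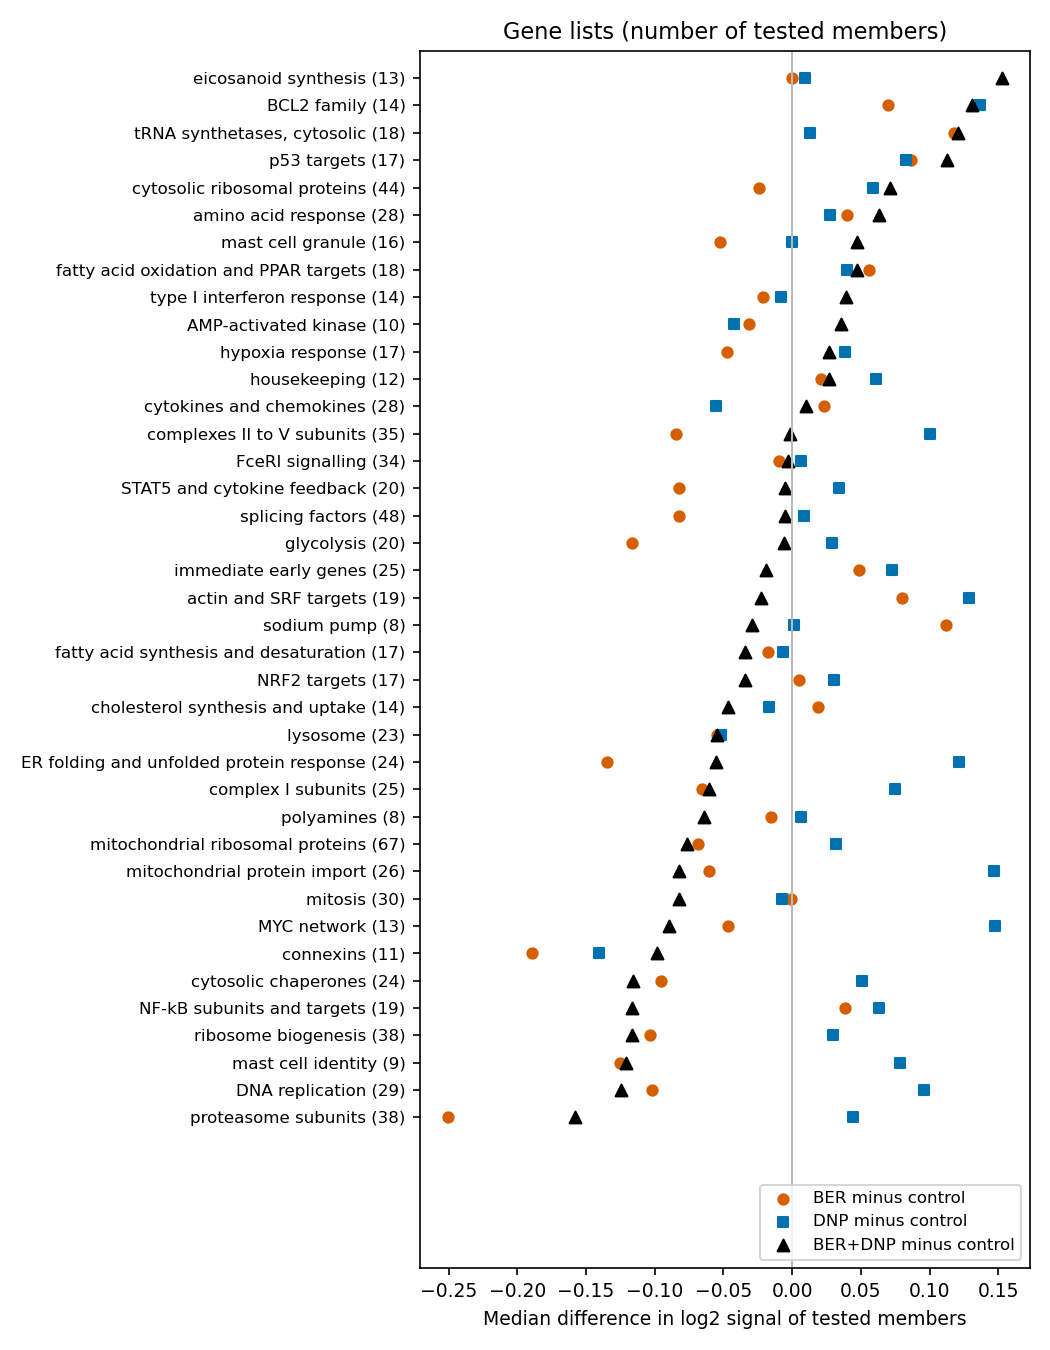
Median difference from the control array (log2) over tested members of each gene list with at least 8 tested members, for BER (orange circles), DNP (blue squares) and BER+DNP (black triangles); the number of members is in parentheses. The BER+DNP medians run from -0.16 for the proteasome to 0.15 for eicosanoid synthesis, all under 1.5-fold, and the 3 comparisons share the control array.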

How the data were processed

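Total RNA of 4 MC/9 cultures (control, BER, DNP and BER+DNP, 1 array each) was measured on 1-colour Affymetrix Mouse Genome 430 2.0 arrays. The authors deposited log2 signals of 45101 probe sets, made with Affymetrix Expression Console per the submitters' processing notes; its version, summary algorithm and background correction were not given in the sources used here. The log2 scale was read from the values, and array medians of 3.13 to 3.15 were left as deposited. Probe sets were named from the platform annotation: 34945 had 1 symbol, 932 several and 9160 none, and 64 array controls were set apart. RefSeq (GRCm38.p6) matched 34741 of the 34945 by gene identifier.

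Differences between arrays were computed in Python 3.11.15 with numpy 2.4.6 and pandas 2.3.3, and the steps were tested on simulated data. With 1 array a group and 0 residual degrees of freedom no model was fitted, and the number of arrays limits the precision. Named genes are the 14 highest and lowest combined differences, 8 each among bright genes, 8 and 5 each for departures overall and among bright genes, up to 4 per list, and a mast cell panel; unannotated symbols were passed over. Genes and lists were chosen with earlier results of these data known. Alternatives covered the filter, probe set choice, normalization and an added offset; the split by agent was added after seeing the data.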

Additional observations from a re-analysis of the deposited data

Results flagged for a closer look

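Berberine's difference with the antibody (BER+DNP minus DNP) was set against its difference without it (BER minus control), which gives the departure from the sum. The 8 named genes with the highest value were Prkcq at 1.15, Zfas1 at 1.14, Drd2 at 1.13, Tspan8 at 1.11, Mmp23 at 1.07, Alas2 at 1.05, Rfc1 at 1.04 and Cfhr2 at 1.03. The 8 with the lowest were Pla2g15 at -1.28, Cntd1 at -1.27, B3gnt8 at -1.17, Wars2 at -1.11, Mxra8 at -1.08, Dctn6 at -1.06, Il17rd at -1.05 and Rhebl1 at -1.03. With 1 array a group, none of these differences between the 2 settings was tested. All 16 lie at the ends of 12585 values by selection, and of these Mmp23 is the brightest by its control signal, 5.68.

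Outside the gene measurements, the array control probe set for the 3' end of 18S ribosomal RNA read 11.40 (control), 11.35 (BER), 12.56 (DNP) and 12.43 (BER+DNP), a combined difference of 1.03. The 2 arrays with the antibody were the high ones. The 5' and middle probe sets of the same RNA had combined differences of 0.03 and -0.44.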

How the results depend on the processing

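No paired analysis was possible because each group holds 1 array and the labels carry no replicate numbers, and for the same reason no replicate could be left out. Under no filter, a filter at the 75th percentile (4.31), the median of a gene's probe sets, probe sets without the _s_at and _x_at suffixes, quantile normalization, median centring and offsets of 32 and 100, the counts moved as follows. With no filter, departures of at least 2-fold below the sum were 20 genes, and at 1.5-fold 390 above and 449 below. With the 75th percentile filter, 1 gene was at least 2-fold higher in the combined difference, 58 were 1.5-fold higher and 58 lower; departures were 4 above and 2 below at 2-fold and 99 and 127 at 1.5-fold. Within, more than and less than the sum were then 51, 1 and 6 higher genes and 57, 0 and 1 lower genes.

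With the median of all probe sets, 1 gene was 2-fold higher and 2 lower, 67 and 49 at 1.5-fold, of which 56 and 37 were among the 114 and 110. Departures were then 7 above and 4 below at 2-fold and 152 above at 1.5-fold, and within and less than the sum were 58 and 5 higher genes and 42 and 4 lower genes. Under that setting Arid5b reversed to 0.25 and Uqcr10 to -0.16 in the combined difference, since their dimmer probe sets read the other way. Without _s_at and _x_at probe sets, 3 genes were 2-fold lower. With 32 added to signals, 1 gene was 2-fold higher and 1 lower, 4 and 14 at 1.5-fold, all within the sum (4 and 14, with 0 more and 0 less); departures were 0 and 0 at 2-fold and 2 above and 1 below at 1.5-fold. With 100 added, 0 genes were 2-fold higher or lower, 2 and 5 at 1.5-fold, all within the sum (2 and 5), and departures were 0 throughout. An offset shrinks the differences of dim genes by construction. The medians of the proteasome, ribosome biogenesis, DNA replication, chaperone, ribosomal protein, amino acid response and tRNA synthetase lists kept their sign in 8 of 8 alternatives, the proteasome between -0.16 and -0.06. The eicosanoid, BCL2 and NF-kB lists did so too. Mitosis, complex I, granule, FceRI, cytokine, STAT5, connexin and actin lists kept theirs in 7, splicing factors in 6 and the other respiratory complexes in 5.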

Other observations

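Probe sets without a gene symbol also held differences. Of 3512 past the filter, 1 was at least 2-fold higher and 0 lower, and 37 and 19 at 1.5-fold, with combined differences from -0.94 to 1.18. Of 511 with several symbols, 3 were at least 1.5-fold higher and 6 lower.

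The array's own actin and GAPDH controls differed between ends. For Actb the 3' minus 5' log2 signal was 2.52 (control), 2.78 (BER), 2.33 (DNP) and 2.69 (BER+DNP), and its 3 probe sets had a median combined difference of -0.37. For Gapdh the same value was 1.11, 1.03, 0.96 and 1.06, and the median combined difference was 0.08. These values move with berberine for Actb, and their part in the gene differences was not tested.

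Genes of lists not described above gave a few single values. Hsp90b1, the endoplasmic reticulum HSP90, read 5.99, 5.70, 5.80 and 5.32 on control, BER, DNP and BER+DNP, and Hyou1, a chaperone of the same compartment, read 7.27, 7.38, 7.55 and 7.67. Further Hyou1 probe sets had combined differences of 0.23 and -0.26, so its readings disagree. Fads3, a member of the desaturase family, read 4.61, 5.49, 4.60 and 5.25, high on the berberine arrays, in a list with 13 of 17 members below 0. A further Fads3 probe set read 4.21, 4.53, 4.53 and 4.48, with all treated arrays above control. Sat1, which acetylates polyamines, read 8.33, 7.43, 8.50 and 7.90, with the BER array lowest.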
